A study of Mus musculus with 9 samples.

Results

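The genes described here are 10 transcripts of the AP-1 family and of the immediate early response. They are Fos, Fosb, Fosl1 and Fosl2 (the Fos family), Jun and Junb (2 of the Jun family), and Egr1, Zfp36, Ier2 and Dusp5. The list was given by name, and all 10 genes were found by Ensembl identifier among the 47728 genes of each of the 9 count files, 23919 of which had a read in at least 1 library. All 10 passed the filter on low counts, so each of them was tested.

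RNA was measured in C2C12 cells, a mouse myoblast line whose cells stop dividing, switch on muscle genes and fuse when growth factors are withdrawn. The groups were an Fkbp5 knockdown, an Fkbp4 knockdown and a control, each sampled on days 0, 3 and 5 of differentiation with 1 library per genotype and day. Fkbp5 and Fkbp4 encode related immunophilins that act as co-chaperones of Hsp90. All groups grew in medium with 10% fetal bovine serum until day 0, when they received DMEM with 1% insulin-transferrin-selenium, and the labels give DMEM with HS for later medium changes without spelling out HS. The labels do not give the knockdown method, what the control cells received, or whether the cells were clones or pools.

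AP-1 is a pair of basic leucine zipper proteins, either a Jun protein with a Fos protein or 2 Jun proteins, that binds the DNA word TGACTCA. Immediate early genes are transcribed within minutes of a growth signal without new protein synthesis, largely through the ERK kinases and the serum response factor SRF, which binds the CArG box of their promoters. Their mRNAs decay quickly, and phosphatases and RNA-binding proteins made in the same wave end the response. In myoblasts, Jun and Fos are known as antagonists of MyoD, and a fall in growth factor signalling goes with exit from the cell cycle.

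Library totals lay between 3932372 and 5568486 counts, and a gene with 0 reads could have had up to 3 counts, a limit of 0.539 to 0.763 CPM, the unit of levels here, in which all libraries have the same total. Such limits, like the intervals given with single libraries, reflect the error of counting and no other. The labelled knockdowns were checked on their targets. Fkbp5 was at 4.32, 3.21 and 4.32 CPM in the Fkbp5 knockdown on days 0, 3 and 5, against 20.3, 7.28 and 14.8 CPM in control, which is 3.29-fold lower (SE 0.24 on the log2 scale, adjusted p = 0.00842). Fkbp4 was at 62.2, 27.5 and 24.2 CPM in the Fkbp4 knockdown, against 242.9, 141.8 and 137.7 CPM in control, which is 4.87-fold lower (SE 0.12, adjusted p = 1.97e-05). All 8 muscle markers rose by day 3 and by day 5 in the comparison of days. Of markers of other cell types, 4 of 5 adipocyte, 2 of 6 osteoblast and chondrocyte, 2 of 4 immune and 1 of 3 endothelial genes were at 0 in all libraries, and their summed levels were at most 2.26, 83.0, 4.24 and 0.689 CPM. The 83.0 CPM belonged to a control library, and the osteoblast and chondrocyte sums, nearly all of them Sox9, were 52.0 to 61.5 CPM in Fkbp5 knockdown, 65.7 to 68.4 CPM in Fkbp4 knockdown and 60.7 to 83.0 CPM in control. The share of counts from mitochondrially encoded genes was 10.1% in the day 5 library of the Fkbp5 knockdown and 1.78% to 5.01% in the other 8.

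Per kilobase of exon, Jun had the highest level of the 10 averaged over the 9 libraries, and the order changed with day. The mean RPKM over the 9 libraries (CPM per kilobase of the union of annotated exons, with the SD over all libraries, n = 9) was 54.0 ± 6.5 for Jun, 34.6 ± 19.0 for Egr1, 29.4 ± 6.7 for Junb and 28.3 ± 7.3 for Ier2. It was 19.0 ± 22.7 for Fosl1, 17.0 ± 6.5 for Fosl2, 7.67 ± 8.11 for Dusp5, 4.32 ± 1.94 for Fos, 3.69 ± 1.03 for Zfp36 and 0.368 ± 0.255 for Fosb. These spreads take in the changes with day. At day 0, Fosl1 was at 37.8, 64.4 and 40.3 RPKM in Fkbp5 knockdown, Fkbp4 knockdown and control, beside 39.3, 52.8 and 49.7 RPKM for Jun. Egr1 was then at 14.1, 19.8 and 18.7 RPKM, below Junb and Ier2 in each of the 3 libraries. At day 3 it was above both in each, at 21.9, 40.7 and 73.8 RPKM. At day 5, Jun was at 52.6, 58.3 and 59.2 RPKM, Egr1 at 33.3, 50.05 and 39.2 RPKM and Fosl1 at 2.23, 5.52 and 2.74 RPKM. Fosb was covered by only 94 reads in all 9 libraries together, Fos by 423 and Zfp36 by 527, so their single values are imprecise, whereas Jun, Fosl2 and Egr1 had 7119, 6797 and 6419 reads. Between the lowest and the highest library, Jun varied 1.51-fold and Fosl1 29.0-fold.

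**Figure D1:**
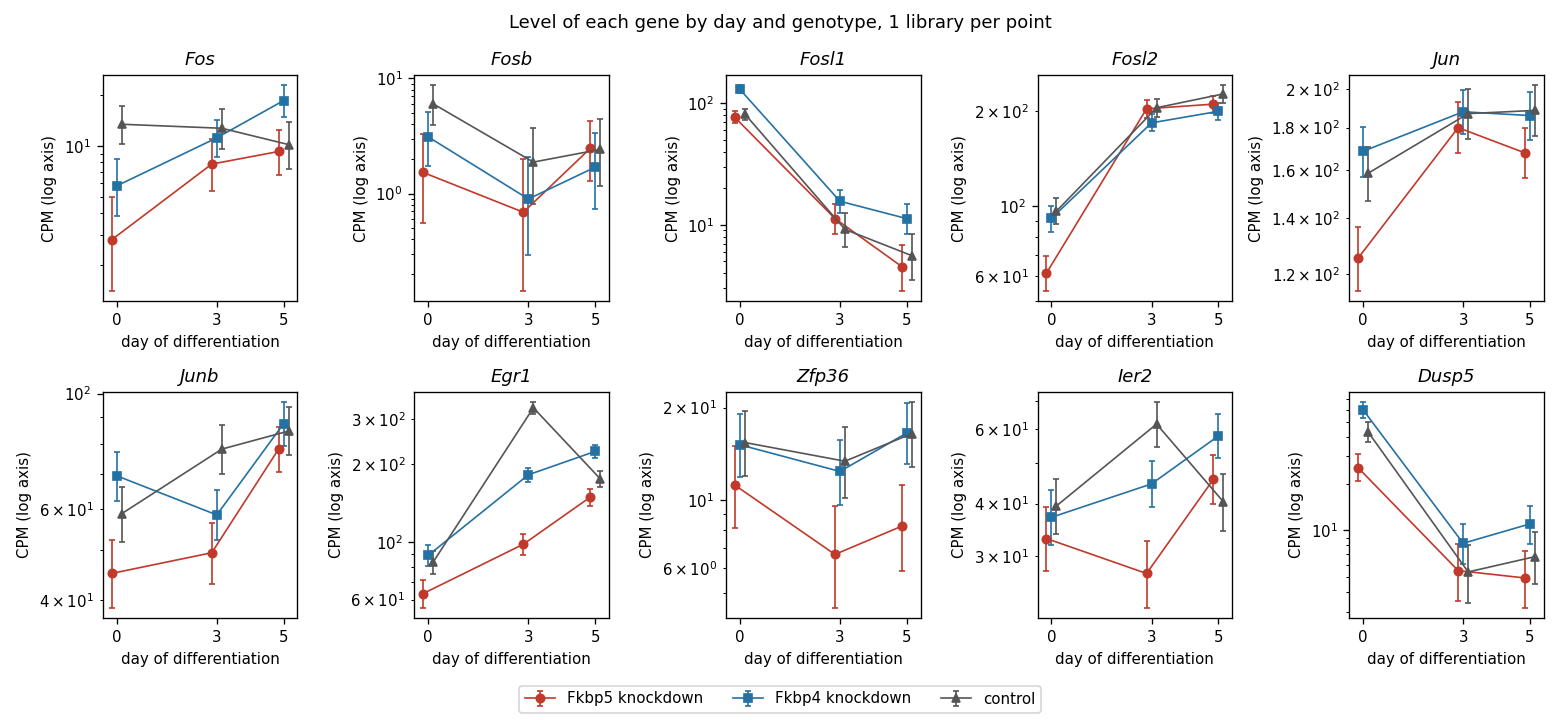
Level of each of the 10 genes in CPM (logarithmic axes, a separate scale per gene) against the day of differentiation. Each point is 1 library with its exact 95% Poisson interval, in the Fkbp5 knockdown, the Fkbp4 knockdown and control; Fosl1 and Dusp5 fell and Fosl2 rose with time in all 3 genotypes, and Egr1 at day 3 was at 98.2, 182.3 and 331 CPM.

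Over differentiation the 2 Fra genes of the Fos family moved in opposite directions. Fosl1, which encodes Fra-1, a Fos protein without the transactivation domain of Fos, had 76.8, 11.2 and 4.52 CPM on days 0, 3 and 5 in Fkbp5 knockdown, 131, 15.6 and 11.2 CPM in Fkbp4 knockdown and 81.9, 9.15 and 5.56 CPM in control. Every day 0 library was above every later one. Fosl2, which encodes Fra-2, had 61.3, 203 and 210.4 CPM in Fkbp5 knockdown, 91.4, 183.5 and 199.6 CPM in Fkbp4 knockdown and 96.4, 205 and 227 CPM in control. Here every later library was above every day 0 library. In the fit with genotype and day as terms, Fosl1 was 8.03-fold lower at day 3 than at day 0 (log2 change −3.01, SE 0.13, adjusted p = 6.6e-08) and 13.4-fold lower at day 5 than at day 0 (−3.75, SE 0.14, adjusted p = 2.16e-08). Fosl2 was 2.39-fold higher at day 3 than at day 0 (log2 change 1.25, SE 0.13, adjusted p = 2.23e-05) and 2.63-fold higher at day 5 than at day 0 (1.396, SE 0.13, adjusted p = 8.05e-06). In bulk RNA, fewer cells that carry a transcript and less of it per cell cannot be told apart.

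Fosl1 lies on chromosome 19, 5447547 to 5455946, plus strand of GRCm38, with 4 exon blocks of 2033 bases in all, and 1163 of those bases are also exon of Ccdc85b on the other strand. The library kit does not mark strand, so reads from that stretch may belong to either gene. Ccdc85b was counted at 13.3 to 22.0 CPM in the 9 libraries and differed by −0.29 on the log2 scale at day 3 against day 0 (adjusted p = 0.121) and fell by 0.43 at day 5 against day 0 (adjusted p = 0.0277). Fosl2 lies on chromosome 5, 32135801 to 32157842, plus strand, with 4 exon blocks of 9680 bases that no other annotated exon overlaps.

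Within the Fos family, Fosl1 held the larger part of the transcripts before differentiation and Fosl2 after it. Of the summed RPKM of the 4 Fos family genes, Fosl1 took 70.8% to 83.8% at day 0, 14.4% to 24.4% at day 3 and 7.87% to 16.1% at day 5 over the 3 genotypes. Fosl2 took 12.3% to 17.5% at day 0, 60.1% to 70.1% at day 3 and 60.2% to 76.8% at day 5. When the length of Fosl1 is limited to the 870 bases it shares with no other gene, an upper limit for its level per length if all of its reads fell there, its share was 85.0% to 92.4% at day 0, 28.1% to 43.0% at day 3 and 16.6% to 31.0% at day 5. On that length Fosl2 took 45.4% to 56.6% at day 3. In Fkbp4 knockdown the 2 were close on that day, with 43.0% for Fosl1 and 45.4% for Fosl2. The summed RPKM of the family at day 0 was 45.5 in Fkbp5 knockdown, 76.8 in Fkbp4 knockdown and 56.9 in control, and at day 5 it was 28.3, 34.3 and 30.9 in the same order of groups.

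**Figure D2:**
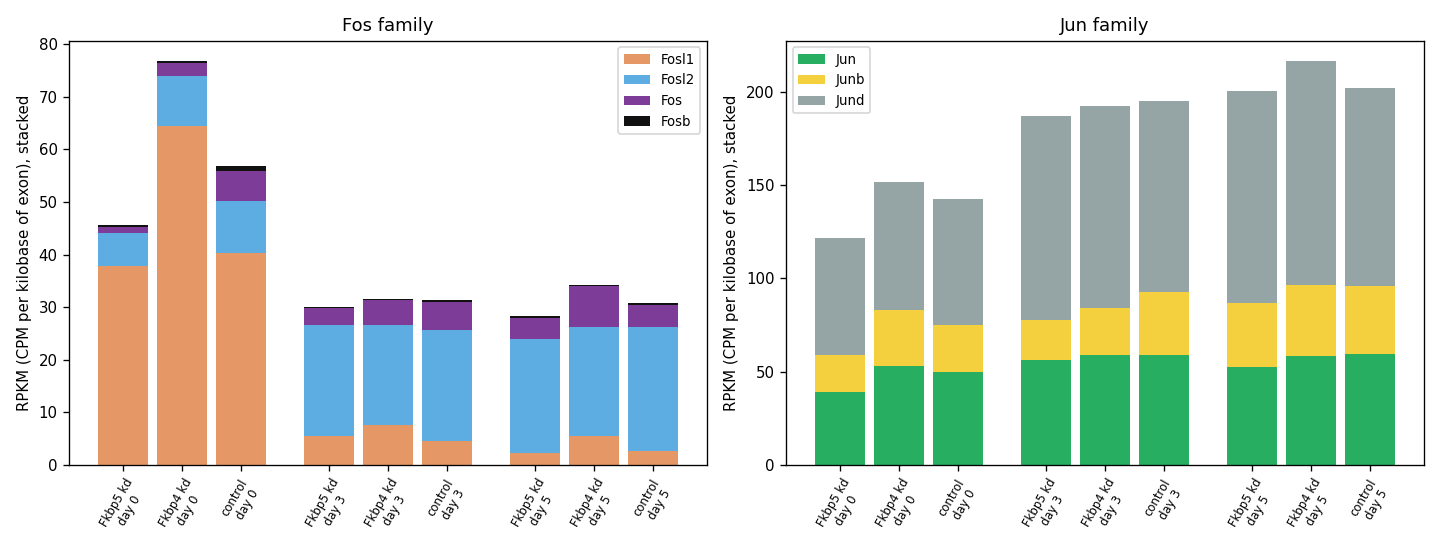
Summed RPKM of the Fos family (left) and of the Jun family with Jund (right) in each of the 9 libraries, stacked by gene, with Fkbp5 knockdown, Fkbp4 knockdown and control side by side on days 0, 3 and 5. Each bar is 1 library and has no error bar; Fosl1 fills 70.8% to 83.8% of the Fos family bars at day 0 and Fosl2 60.2% to 76.8% of them at day 5.

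The 2 remaining Fos genes were scarce. Fos, the founding member and a classical serum-induced gene, had 2.80, 7.80 and 9.25 CPM on days 0, 3 and 5 in Fkbp5 knockdown (11, 34 and 45 reads), 5.80, 11.1 and 18.4 CPM in Fkbp4 knockdown (28, 62 and 87 reads) and 13.4, 12.7 and 10.2 CPM in control (60, 54 and 42 reads). In both knockdowns the day 0 library was the lowest, and in control it was the highest. Its change with day did not pass the test, with log2 changes of 0.58 at day 3 against day 0 (SE 0.36, adjusted p = 0.205) and 0.90 at day 5 against day 0 (SE 0.36, adjusted p = 0.0529). Without the day 0 control library both passed, at 1.30 (adjusted p = 0.00872) and 1.57 (adjusted p = 0.00222), and without the day 5 control library the day 5 change was 1.43 (adjusted p = 0.00471). DESeq2 called the day 5 change as well, at 0.96 (adjusted p = 0.0332). Fosb had 1.53, 0.689 and 2.47 CPM in Fkbp5 knockdown, 3.11, 0.898 and 1.70 CPM in Fkbp4 knockdown and 6.02, 1.88 and 2.42 CPM in control, from 3 to 27 reads a library. Fosb fell at day 3 against day 0 (log2 change −1.59, SE 0.45, adjusted p = 0.0122), but without the day 0 control library its change was −1.26 with an adjusted p of 0.0976, and DESeq2 gave an adjusted p of 0.0526. At day 5 against day 0 its change of −0.57 was not called (adjusted p = 0.247), and without the day 5 library of the Fkbp5 knockdown it was −1.06 (adjusted p = 0.0450). Fos (chromosome 12, 85473890 to 85477273, plus strand) and Fosb (chromosome 7, 19302696 to 19310051, minus strand) overlap no exon of another annotated gene.

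The Jun genes changed less. Jun, the main partner of Fos proteins, had 125.4, 180.0 and 167.8 CPM on days 0, 3 and 5 in Fkbp5 knockdown, 168.5, 188.0 and 186.1 CPM in Fkbp4 knockdown and 158.6, 187 and 188.7 CPM in control. The day 0 library was the lowest of each genotype, although the day 0 value of Fkbp4 knockdown slightly exceeded the day 5 value of Fkbp5 knockdown. Jun was 1.23-fold higher at day 3 than at day 0 (log2 change 0.30, SE 0.09, adjusted p = 0.0197) and also at day 5 than at day 0 (0.30, SE 0.09, adjusted p = 0.0177). Neither call held without the day 0 library of the Fkbp5 knockdown (0.24 at day 3, adjusted p = 0.0695, and 0.24 at day 5, adjusted p = 0.0615). The day 3 call was also lost without the day 0 control library (0.31, adjusted p = 0.0549) and the day 5 call without the day 5 library of the Fkbp5 knockdown (0.26, adjusted p = 0.0803). Junb, which can substitute for Jun or oppose it, had 45.0, 49.3 and 78.1 CPM in Fkbp5 knockdown, 69.4, 58.4 and 87.5 CPM in Fkbp4 knockdown and 58.7, 78.2 and 84.7 CPM in control. It rose by day 5 against day 0 (log2 change 0.58, SE 0.14, adjusted p = 0.00494), with no call at day 3 against day 0 (0.10, SE 0.14, adjusted p = 0.600). Jund, the third Jun gene, rose too, by 0.68 at day 3 (SE 0.09, adjusted p = 0.000107) and 0.81 at day 5 (SE 0.09, adjusted p = 2.52e-05) on the log2 scale. It was the most abundant Jun transcript in each library. Its levels were 63.0 to 68.6 RPKM at day 0, 102.6 to 109.1 RPKM at day 3 and 106.2 to 120.2 RPKM at day 5. Jun lies on chromosome 4, 95049034 to 95052222, minus strand, as a single exon block that shares 232 of its 3189 bases with Junos on the other strand. Junb on chromosome 8, 84974484 to 84978718, minus strand, shares 173 of 2301 bases with Prdx2 on the other strand. Reads from these bases may belong to either gene. Prdx2 was counted at 345.8 to 632.7 CPM in the 9 libraries, with a log2 change of −0.58 at day 5 against day 0 (SE 0.12, adjusted p = 0.00192).

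Egr1 and Dusp5, both read out as gauges of ERK signalling, also moved in opposite directions with day. Egr1, a zinc finger transcription factor of GC-rich promoters, had 63.3, 98.2 and 149.3 CPM on days 0, 3 and 5 in Fkbp5 knockdown, 88.9, 182.3 and 224 CPM in Fkbp4 knockdown and 83.9, 331 and 175.9 CPM in control. All 6 later libraries were above all 3 of day 0, and the day 3 control library was the highest of the 9. Egr1 was 2.42-fold higher at day 3 than at day 0 (log2 change 1.28, SE 0.26, adjusted p = 0.00188) and 2.41-fold higher at day 5 than at day 0 (1.27, SE 0.26, adjusted p = 0.00159). Without the day 3 control library the day 3 change was 0.81 on the log2 scale and was still called. Egr1 lies on chromosome 18, 34859823 to 34864984, plus strand, and overlaps no exon of another annotated gene. Dusp5, a nuclear phosphatase that inactivates ERK, had 25.4, 5.51 and 4.94 CPM in Fkbp5 knockdown, 60.1, 8.26 and 11.0 CPM in Fkbp4 knockdown and 43.3, 5.40 and 6.77 CPM in control. All later libraries were below all day 0 libraries. Dusp5 was 6.58-fold lower at day 3 than at day 0 (log2 change −2.72, SE 0.17, adjusted p = 5.08e-07) and 5.50-fold lower at day 5 than at day 0 (−2.46, SE 0.16, adjusted p = 6.08e-07).

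Zfp36 and Ier2 showed no called change with day. Zfp36, which encodes tristetraprolin, a protein that binds AU-rich elements and speeds the decay of early mRNAs, had 11.2, 6.66 and 8.23 CPM on days 0, 3 and 5 in Fkbp5 knockdown, 15.1, 12.4 and 16.5 CPM in Fkbp4 knockdown and 15.4, 13.4 and 16.5 CPM in control. The 3 libraries of the Fkbp5 knockdown were the lowest of the 9. Its log2 changes were −0.38 at day 3 against day 0 (SE 0.18, adjusted p = 0.0985) and −0.02 at day 5 against day 0 (SE 0.18, adjusted p = 0.948). Ier2, a nuclear protein of the serum response, had 33.1, 27.3 and 45.7 CPM in Fkbp5 knockdown, 37.1, 44.5 and 57.8 CPM in Fkbp4 knockdown and 39.5, 61.7 and 40.4 CPM in control. Its log2 changes were 0.26 at day 3 (SE 0.22, adjusted p = 0.351) and 0.44 at day 5 (SE 0.22, adjusted p = 0.108) against day 0. Ier2 lies on chromosome 8, 84661331 to 84662852, minus strand, as a single exon block. The day 5 change of Ier2 passed without the day 5 control library (0.74, adjusted p = 0.0103), without the day 3 control library (0.43, adjusted p = 0.0460) or without the day 3 library of the Fkbp5 knockdown (0.45, adjusted p = 0.0475).

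**Figure D3:**
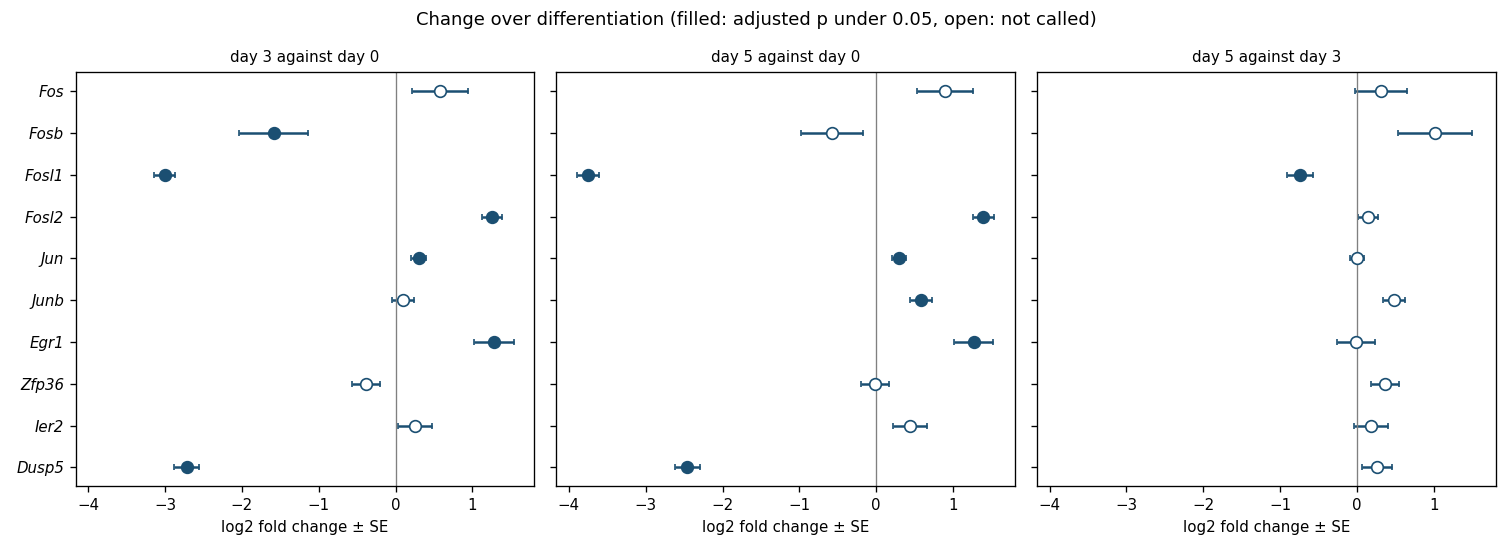
Log2 fold change with its SE between days for each of the 10 genes, from the fit over all 9 libraries, on 1 common scale. Filled points have an adjusted p under 0.05 over all genes; at day 3 against day 0 they run from −3.01 for Fosl1 to 1.28 for Egr1, and at day 5 against day 3 Fosl1 is the 1 filled point.

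In all, 6 of the 10 genes were called at day 3 against day 0, where 52.2% of all tested genes were called. Of these, 3 were higher (Fosl2, Egr1 and Jun), beside 26.4% of all genes called higher, and 3 lower (Fosl1, Dusp5 and Fosb), beside 25.8% of all genes called lower. At day 5 against day 0, 6 of 10 were called, where 57.9% of all genes were, with 4 higher (Fosl2, Egr1, Junb and Jun; 29.3% of all genes) and 2 lower (Fosl1 and Dusp5; 28.6% of all genes). The shares of called genes are close to those of all genes, and the median log2 change of the 10 was 0.18 at day 3 and 0.37 at day 5, against 0.00 and 0.01 over all genes tested. At day 5 against day 3, 1 of 10 was called, where 6.16% of all genes were and 2.39% were called lower. This was Fosl1, which fell by a further 0.74 on the log2 scale (SE 0.17, adjusted p = 0.0300). Its call was lost without the day 3 library of either knockdown or of control, or without the day 5 library of the Fkbp5 knockdown or of control (−0.61 to −0.82, adjusted p = 0.0691 to 0.128), and with DESeq2 (−0.75, adjusted p = 0.0576). Junb, at 0.48 (adjusted p = 0.0715), was called without the day 3 control library (0.67, adjusted p = 0.0357).

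The Fkbp5 knockdown was compared next with control, as 1 difference fitted over the 3 days. The single days need not share that difference, and their ratios are given further below. None of the 10 genes was called by edgeR, DESeq2 or limma voom, where 2.09% of all genes were called by edgeR. Without adjustment, 6 had a p under 0.05 with edgeR (Fos, Fosb, Junb, Egr1, Zfp36 and Dusp5), 4 with DESeq2 and 5 with limma voom. The fitted values lay below 0 for 9 of 10 genes, with a median of −0.42 against 0.00 over all genes tested. Zfp36 was nearest to a call (log2 difference −0.76, SE 0.18, adjusted p = 0.0692), and it passed without the day 0 library of the Fkbp5 knockdown (−0.97, adjusted p = 0.0430). The other values were −0.92 for Fos (SE 0.37, adjusted p = 0.249), −0.998 for Fosb (SE 0.44, adjusted p = 0.302), −0.79 for Egr1 (SE 0.26, adjusted p = 0.159), −0.46 for Dusp5 (SE 0.18, adjusted p = 0.237), −0.38 for Ier2 (SE 0.22, adjusted p = 0.449) and −0.34 for Junb (SE 0.14, adjusted p = 0.283). Fosl2 at −0.19 (SE 0.13), Jun at −0.14 (SE 0.09) and Fosl1 at 0.02 (SE 0.15) were nearer to 0. Some values shrank with 1 library left out. Without the day 3 control library they were −0.33 for Egr1, −0.06 for Ier2 and −0.16 for Junb, without the day 0 control library −0.43 for Fos, and without the day 0 library of the Fkbp5 knockdown −0.48 for Fosb and −0.26 for Dusp5. Without a filter on low counts, where 23919 genes were tested, Fos, Egr1 and Zfp36 passed.

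Single libraries of the same day were set beside each other as log2 ratios with exact 95% intervals that cover counting error only, and with no test. At day 0 the Fkbp5 knockdown was below control in 10 of 10 genes, and 7 of these intervals lay below 0, beside 12% of all genes tested. That share is over genes of all levels, and intervals are narrower for genes with more reads. The median log2 ratio of the 10 was −0.37, against a median of 0 over all genes tested (the latter with a prior count of 2). The ratios were −2.20 for Fos (interval −3.27 to −1.26), −1.92 for Fosb (−3.49 to −0.61), −0.71 for Dusp5 (−1.07 to −0.35), −0.59 for Fosl2 (−0.82 to −0.36), −0.34 for Egr1 (−0.58 to −0.11), −0.32 for Junb (−0.60 to −0.04) and −0.28 for Jun (−0.45 to −0.11). At day 3, 5 intervals lay below 0, beside 14.3% of all genes, and the genes were partly others. Egr1 was 3.43-fold lower in Fkbp5 knockdown than in control (−1.78, interval −1.94 to −1.62), Ier2 2.30-fold lower (−1.20, −1.53 to −0.89), Zfp36 2.05-fold lower (−1.03, −1.73 to −0.37), Fos 1.66-fold lower (−0.73, −1.39 to −0.08) and Junb 1.61-fold lower (−0.69, −0.94 to −0.44). At day 5, 1 interval lay below 0, that of Zfp36 (−0.91, −1.51 to −0.32), beside 15.1% of all genes.

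In the same libraries the summed CPM of the 8 muscle markers at days 0, 3 and 5 was 1170, 6133 and 9621 in Fkbp5 knockdown, 1232, 8378 and 14130 in Fkbp4 knockdown and 1209, 7531 and 13390 in control. Ckm, the muscle creatine kinase, was the 1 of these 8 markers called lower in Fkbp5 knockdown than in control, beside 1.4% of all genes. Its log2 difference was −1.10 (SE 0.14, adjusted p = 0.00458), a call lost without the day 5 library of the Fkbp5 knockdown or of control (adjusted p = 0.0532 to 0.0539). The part of these marker levels, and of the mitochondrial share of the day 5 library of the Fkbp5 knockdown, in the values of the 10 genes was not tested.

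**Figure D4:**
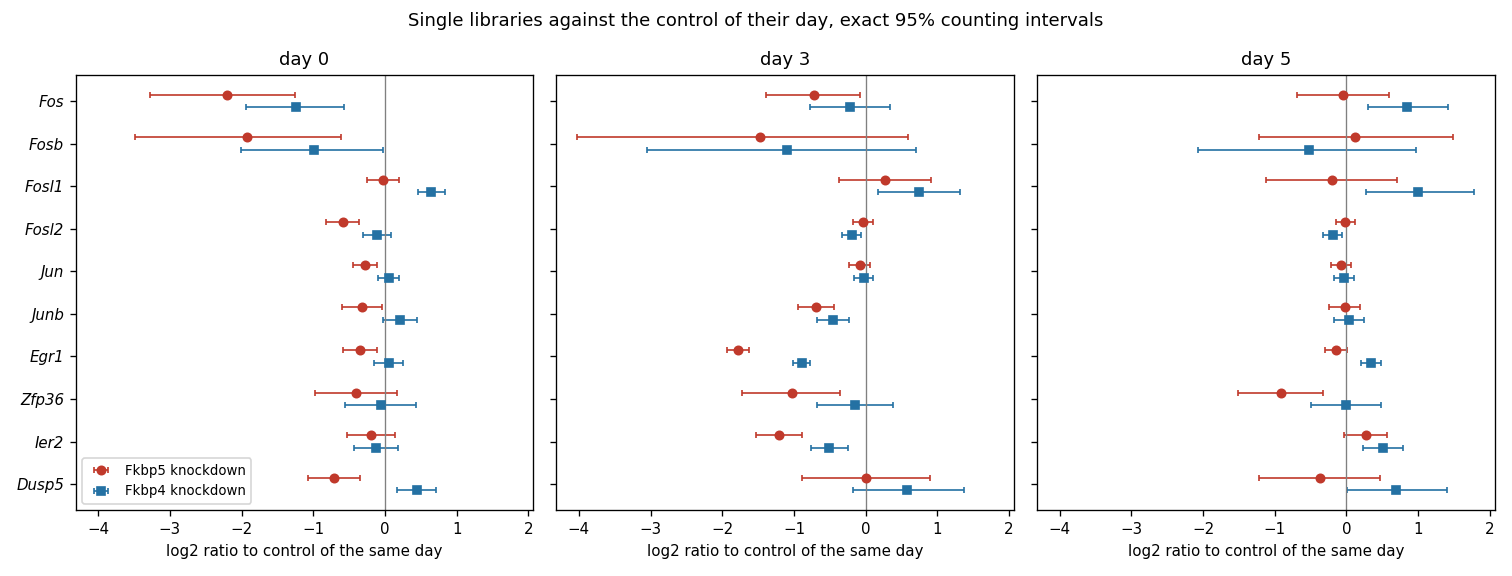
Log2 ratio of each knockdown library to the control library of its day for the 10 genes, with exact 95% counting intervals, in separate panels for days 0, 3 and 5. Fkbp5 knockdown lies above Fkbp4 knockdown in each row; at day 3 Egr1 stands at −1.78 in Fkbp5 knockdown and −0.90 in Fkbp4 knockdown, and at day 5 most intervals of Fkbp5 knockdown span 0.

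In the Fkbp4 knockdown against control, 1 of the 10 genes was called over the 3 days, where 1.09% of all genes were called and 0.265% were called higher. Fosl1 was 1.66-fold higher in Fkbp4 knockdown (log2 difference 0.74, SE 0.14, adjusted p = 0.0369), with single-day log2 ratios of 0.64, 0.74 and 1.00 at days 0, 3 and 5. The call was lost when any 1 of the 3 Fkbp4 knockdown or 3 control libraries was left out (0.65 to 0.84, adjusted p = 0.107 to 0.233). Dusp5 had ratios of 0.44, 0.58 and 0.69 on the 3 days and a fitted difference of 0.53 (SE 0.16, adjusted p = 0.162). The other 8 genes had fitted values between −0.87 for Fosb and −0.00 for Jun, and the median of the 10 was −0.07 against 0.02 over all genes tested. Both knockdown comparisons use the same control libraries.

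On single days the Fkbp4 knockdown differed from control in changing directions. At day 0, 4 of 10 intervals lay on 1 side of 0, beside 26.9% of all genes: Fosl1 and Dusp5 were above control, and Fos (−1.24, −1.94 to −0.57) and Fosb (−0.99, −2.00 to −0.03) were below it. At day 3, 5 intervals did, beside 28.5% of all genes, with Fosl1 above control and Egr1 (−0.90, −1.01 to −0.78), Ier2 (−0.51, −0.76 to −0.25), Junb (−0.46, −0.68 to −0.23) and Fosl2 (−0.19, −0.33 to −0.06) below it. At day 5, 6 intervals did, beside 24.5% of all genes, with Fos (0.85, 0.30 to 1.42), Fosl1, Dusp5, Ier2 (0.51, 0.23 to 0.79) and Egr1 (0.34, 0.20 to 0.48) above control and Fosl2 (−0.19, −0.33 to −0.06) below it. At day 3 both knockdowns are set against the 1 control library that was the highest of all 9 for Egr1 and Ier2, and no second library of that kind is there to compare it with.

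The 2 knockdowns differed from each other in 3 of the 10 genes, where 12.8% of all genes were called and 6.02% were called lower. All 3 were lower in Fkbp5 knockdown than in Fkbp4 knockdown. Dusp5 was 1.98-fold lower (log2 difference −0.99, SE 0.17, adjusted p = 0.00569), Fosl1 1.65-fold lower (−0.72, SE 0.14, adjusted p = 0.00936) and Zfp36 1.62-fold lower (−0.70, SE 0.18, adjusted p = 0.0322). All 10 fitted values were below 0, with a median of −0.44 against −0.01 over all genes tested. Without the day 0 library of the Fkbp5 knockdown, Dusp5 stood at −0.79 (adjusted p = 0.0514) and Fosl1 at −0.73 (adjusted p = 0.0534). Zfp36 lost its call when any of the 3 Fkbp4 knockdown libraries, the later libraries of the Fkbp5 knockdown or the later control libraries was left out (−0.60 to −0.80, adjusted p = 0.0508 to 0.157), and with DESeq2 (−0.71, adjusted p = 0.107). Egr1, at −0.57 (SE 0.25, adjusted p = 0.165), was called without the day 3 control library (−0.60, adjusted p = 0.0186). In the same comparison 3 of the 8 muscle markers were lower in Fkbp5 knockdown, the embryonic myosin gene Myh3 (−1.36, SE 0.24, adjusted p = 0.00706), Ckm (−1.34, SE 0.13, adjusted p = 0.000612) and the skeletal actin gene Acta1 (−0.93, SE 0.24, adjusted p = 0.0293), with a median of −0.63 over the 8. Their part in the values of the 10 genes was not tested.

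**Figure D5:**
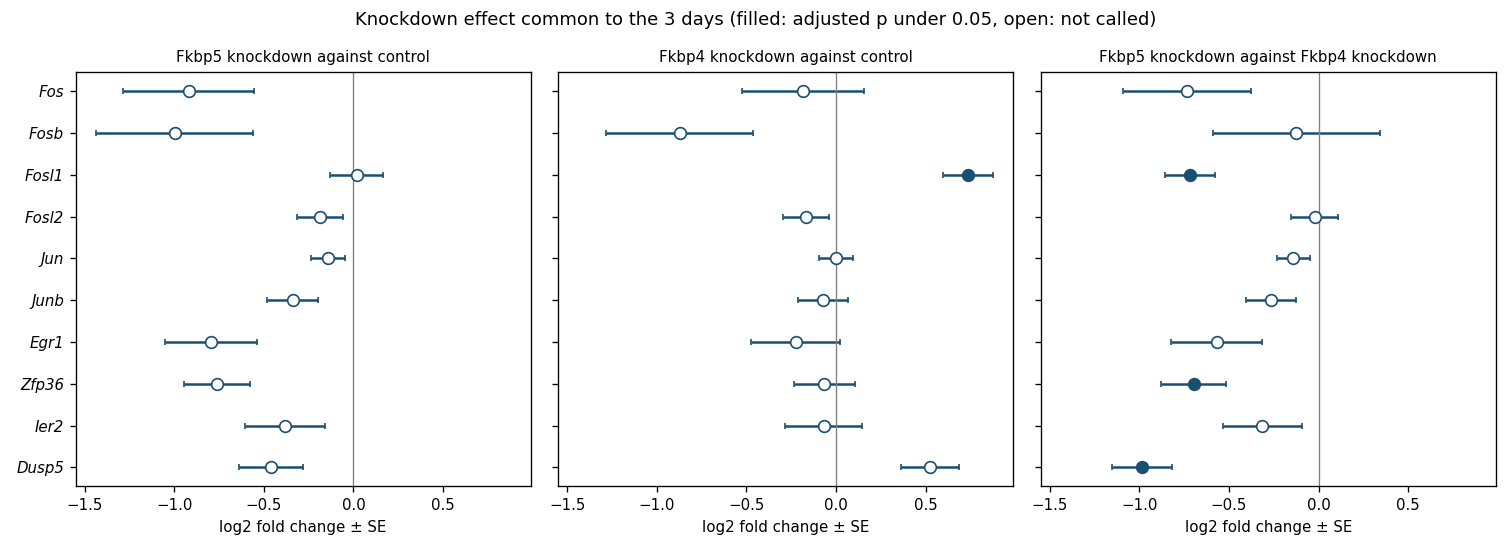
Log2 difference with its SE, fitted as 1 value over the 3 days, for each of the 10 genes on 1 common scale. The panels are the Fkbp5 knockdown against control, the Fkbp4 knockdown against control and the Fkbp5 knockdown against the Fkbp4 knockdown. Single days need not share the fitted value. Filled points have an adjusted p under 0.05; they are Fosl1 (0.74) in the Fkbp4 knockdown against control, and Dusp5 (−0.99), Fosl1 (−0.72) and Zfp36 (−0.70) between the knockdowns.

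Whether a knockdown effect in growing cells differed from that after the switch of medium was tested as an interaction, with days 3 and 5 as a single late level. None of the 10 genes was called for either knockdown, where 0.0374% of all genes were called in each. Fos had the largest value in both. Its difference from control was higher after day 0 than at day 0 by 1.78 on the log2 scale in Fkbp5 knockdown (SE 0.60, adjusted p = 0.962) and by 1.59 in Fkbp4 knockdown (SE 0.51, adjusted p = 1). Within a genotype, the day 5 library held 3.41 times as much Fos as the day 0 library in Fkbp5 knockdown and 3.26 times in Fkbp4 knockdown, and in control the log2 ratio of day 5 to day 0 was −0.38 (exact interval −0.99 to 0.21). Fosl2 had 0.56 in Fkbp5 knockdown (SE 0.20, adjusted p = 0.962) and −0.04 in Fkbp4 knockdown (SE 0.19, adjusted p = 1). Without adjustment, edgeR and limma voom each gave a p under 0.05 for 2 genes in Fkbp5 knockdown (Fos and Fosl2) and for 1 in Fkbp4 knockdown (Fos), and DESeq2 for 0 in each. A value that misses the threshold does not show that the effects were alike.

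The promoters of the 10 genes were searched for the sites through which the early response is known to act. RefSeq windows (GRCm38.p6, 250 bases before to 50 after a gene's start) matched 7 of the 10 by symbol, and Fosl1, Egr1 and Ier2 were not among them. The words searched on both strands were the AP-1 site (TGACTCA or TGAGTCA), the cyclic AMP response element (TGACGTCA), the CArG box, the EGR site (GCGTGGGCG or GCGGGGGCG, and their complements), the ETS core (CCGGAA or TTCCGG) and TATAAA or its complement. Dusp5 and Zfp36 held a CArG box, which 1.63% of all 32851 windows hold, and Fosb, Fosl2 and Zfp36 held an EGR site, which 3.47% hold. Shown here are stretches before the RefSeq start of these 4 genes, 5′ to 3′ on the gene's own strand, with CArG boxes and EGR sites in capitals, because they carry the letters that SRF and the Egr1 protein are known to bind. GENCODE M21 places the starts of these genes further upstream, by 36 bases for Dusp5, 6 for Fosb, 1025 for Zfp36 and 671 for Fosl2. The sites of Dusp5 and Fosb lie before both starts, whereas those of Zfp36 and Fosl2 lie inside a GENCODE exon. Of these only 30 bases around each site are given.

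Dusp5, CArG boxes, chr19:53529025-53529108, plus strand: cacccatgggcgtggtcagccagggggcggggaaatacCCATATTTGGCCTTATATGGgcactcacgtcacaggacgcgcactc
Zfp36, EGR site, chr7:28379314-28379343, minus strand: gagctacgccGCGGGGGCGcgtcccggaag
Zfp36, CArG box, chr7:28379267-28379296, minus strand: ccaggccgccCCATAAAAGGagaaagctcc
Fosb, EGR site, chr7:19310052-19310165, minus strand: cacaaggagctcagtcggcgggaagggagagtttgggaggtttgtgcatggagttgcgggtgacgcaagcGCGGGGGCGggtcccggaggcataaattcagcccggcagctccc
Fosl2, EGR site, chr5:32136383-32136412, plus strand: ccggctgcgcGCGGGGGCGgaagggcgcgc

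Dusp5 (gene on chromosome 19, 53529109 to 53542431, plus strand) shares 547 of its 2473 exon bases with AC137853.2 on the other strand, and Zfp36 shares 125 of 3470 with Gm44710 on the other strand. Reads from these bases may belong to either gene. Dusp5 has 2 CArG boxes end to end, which begin 82 and 72 bases before its RefSeq start. Zfp36 (chromosome 7, 28376784 to 28380253, minus strand, a single exon block) has a CArG box 58 and an EGR site 105 bases before its start, and an ETS core at 92 bases, a word that 14.9% of all windows hold. The EGR sites of Fosb and Fosl2 begin 50 and 79 bases before their RefSeq starts. Of the genes with an EGR site, Fosl2 rose and Fosb fell at day 3, and Zfp36 did not change past the threshold. The call of Fosb was lost with DESeq2 or without the day 0 control library. Any part of Egr1 in these courses was not tested. No member's window held the AP-1 site, a word found in 5.20% of all windows, or the cyclic AMP response element, found in 1.79%. The TATAAA word, found in 13.6% of all windows, stood 33 bases before the start of Fos and at the RefSeq start of Junb. GENCODE M21 places the start of Junb downstream of that word, at 84978718 on chromosome 8. A word is a description of these letters and not a bound site, and a word that is missing here says nothing about sequence outside the window.

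Of 15 listed genes known as AP-1 targets, 11 were tested. At day 3 against day 0, 5 fell and 4 rose, beside 25.8% of all genes called lower and 26.4% called higher. At day 5, 6 fell and 2 rose, beside 28.6% and 29.3%. Their median log2 changes were −1.25 and −0.95. Whether a list differs from all genes was not tested, here or for the lists that follow. At day 3, Spp1 (osteopontin) had a log2 change of −4.52 (SE 0.15, adjusted p = 2.21e-08), Plaur (the urokinase receptor) of −2.47 (SE 0.15, adjusted p = 4.9e-07) and the cyclin gene Ccnd1 of −1.74 (SE 0.13, adjusted p = 1.62e-06). The cytokine gene Lif rose by 1.67 (SE 0.24, adjusted p = 0.000199), Plau, which encodes urokinase, by 0.69 (SE 0.12, adjusted p = 0.000747), Cd44 by 0.60 (SE 0.15, adjusted p = 0.00606) and the matrix protease gene Mmp14 by 0.51 (SE 0.11, adjusted p = 0.00307). At day 5 against day 3, 2 of the 11 fell and 3 rose, beside 2.39% and 3.77% of all genes. Plau (−0.95, SE 0.12, adjusted p = 0.00201) and Cd44 (−0.73, SE 0.15, adjusted p = 0.0177) were the 2 that fell. Spp1 was among the 3 that rose (1.02, SE 0.13, adjusted p = 0.0021). With single libraries left out, 1 to 4 fell and 1 to 3 rose. None of the 11 was called by edgeR in either knockdown against control or between the knockdowns. Without adjustment 3 had a p under 0.05 in Fkbp5 knockdown against control, 2 in Fkbp4 knockdown against control and 3 between the knockdowns, where DESeq2 called 0, 1 and 1 and limma voom 0, 1 and 2. RefSeq windows matched 11 of the 15 genes, and 7 of these genes hold the AP-1 site there, beside 5.95% of all 27025 gene symbols with a window. Because the genes were listed as known AP-1 targets, this share describes the choice of the list and is not a result of these data. The 7 are Mmp3, Mmp10, Mmp12, Mmp13, Plaur, Il6 and Lif. Of the genes named above as changing at day 3, only Plaur and Lif are among them. A gene without a window was not searched. Plaur and Lif are shown because both hold the AP-1 site and moved in opposite directions, with that site in capitals, on the gene's own strand (GRCm38.p6).

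Plaur, chr7:24462389-24462445, plus strand, site beginning 69 bases before the start: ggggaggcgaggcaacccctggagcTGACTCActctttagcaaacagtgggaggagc
Lif, chr11:4257318-4257371, plus strand, site beginning 228 bases before the start: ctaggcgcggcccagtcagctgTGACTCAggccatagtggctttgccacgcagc

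Of 13 listed bZIP partners of AP-1, 9 were tested. At day 3 against day 0, 5 rose and 1 fell, beside 26.4% of all genes called higher and 25.8% called lower. At day 5, 6 rose and 1 fell, beside 29.3% and 28.6%, with medians of 0.49 at both. Besides Jund, Atf7 rose by 0.77 (SE 0.16, adjusted p = 0.00221), Mafk by 0.62 (SE 0.16, adjusted p = 0.00726) and Jdp2, a repressor of AP-1, by 0.49 (SE 0.09, adjusted p = 0.00114) at day 3. Maff fell, with log2 changes of −1.24 at day 3 (SE 0.15, adjusted p = 6.71e-05) and −2.01 at day 5 (SE 0.16, adjusted p = 2.81e-06), and Maf rose by 1.93 at day 5 (SE 0.30, adjusted p = 0.000248). None was called by edgeR against control in either knockdown, with 2 of 9 at an unadjusted p under 0.05 in Fkbp5 knockdown and 1 in Fkbp4 knockdown, where DESeq2 made 1 call. Between the knockdowns, 1 of 9 was called higher and 1 lower in Fkbp5 knockdown, beside 6.83% and 6.02% of all genes. Atf7 was higher in Fkbp5 knockdown than in Fkbp4 knockdown by 0.55 (SE 0.16, adjusted p = 0.0464) and Mafg lower (log2 difference −0.37, SE 0.10, adjusted p = 0.0389). With single libraries left out, Atf7 lost this call in 7 of 9 fits (adjusted p = 0.0636 to 0.180) and Mafg in 5 of 9 (adjusted p = 0.0604 to 0.178).

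Other immediate early genes divided between rising and falling. Of 38 listed genes, 36 were tested, and 11 rose and 14 fell at day 3 against day 0, beside 26.4% of all genes called higher and 25.8% called lower. At day 5, 13 rose and 13 fell, beside 29.3% and 28.6%, and the medians were −0.20 and −0.14. At day 3, Sik1 (a kinase of the cyclic AMP response) rose by 1.66 (SE 0.12, adjusted p = 1.3e-06), Btg2 (an antiproliferative gene) by 1.59 (SE 0.19, adjusted p = 4.89e-05), Gadd45b by 1.22 (SE 0.26, adjusted p = 0.0026) and Klf10 by 1.19 (SE 0.13, adjusted p = 2.47e-05). Of those that fell, Nr4a2 (an orphan nuclear receptor) had a log2 change of −2.34 (SE 0.28, adjusted p = 5.52e-05), the chemokine gene Ccl2 of −2.28 (SE 0.20, adjusted p = 5.15e-06), the kinase gene Sgk1 of −1.86 (SE 0.12, adjusted p = 8.6e-07) and the matricellular gene Ccn2 of −1.76 (SE 0.44, adjusted p = 0.00624). Egr3, a relative of Egr1, rose by 2.13 at day 5 against day 0 (SE 0.35, adjusted p = 0.000428). In Fkbp5 knockdown against control, Sik1 was the 1 gene of the 36 called, beside 1.4% of all genes called lower. It fell by 0.76 (SE 0.11, adjusted p = 0.0108), with a median of −0.15 over the list. Without the day 5 library of the Fkbp5 knockdown, or the day 3 or day 5 control library, the call of Sik1 was lost (adjusted p = 0.0690 to 0.0813). In Fkbp4 knockdown against control 0 of 36 were called by edgeR, DESeq2 or limma voom, and 7 had an unadjusted p under 0.05 with edgeR. Between the knockdowns, 7 were lower and 1 higher in Fkbp5 knockdown, beside 6.02% and 6.83% of all genes. Among them were Egr3 (−1.40, SE 0.37, adjusted p = 0.0320), Ptgs2 (−1.22, SE 0.24, adjusted p = 0.00955), Sik1 (−1.05, SE 0.11, adjusted p = 0.000707) and Plk3 (−0.62, SE 0.14, adjusted p = 0.0186), and Ccn2 as the higher one (1.52, SE 0.44, adjusted p = 0.0481). Sik1 was called between the knockdowns in all 9 fits that left out 1 library, whereas Ccn2 lost the call in 7 of them, Egr3 in 5, Plk3 in 3 and Ptgs2 in 2 (adjusted p = 0.0515 to 0.230). Without any 1 of the Fkbp4 knockdown libraries, or without the day 5 library of the Fkbp5 knockdown, 2 to 3 genes of the list were called lower.

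Of 20 listed genes that shut the early response off, 3 fell in the Fkbp5 knockdown against control, beside 1.4% of all genes called lower. All 20 listed feedback inhibitors and decay factors were tested, and 0 of them were called in Fkbp4 knockdown against control by edgeR, DESeq2 or limma voom (4 at an unadjusted p under 0.05 with edgeR). The list medians were −0.19 and 0.07 for the 2 knockdowns. The 3 were Dusp4 (a nuclear ERK phosphatase like Dusp5; −1.01, SE 0.15, adjusted p = 0.0108), Errfi1 (an inhibitor of the EGF receptor; −0.77, SE 0.12, adjusted p = 0.0131) and Zfp36l2 (a paralog of Zfp36; −0.65, SE 0.14, adjusted p = 0.0417). The calls of Dusp4 and Errfi1 against control were each lost in 3 of the 9 fits that left out 1 library (without the day 5 library of the Fkbp5 knockdown or of control, and for Dusp4 the day 0 or for Errfi1 the day 3 control library; adjusted p = 0.0524 to 0.0714), and that of Zfp36l2 in 7 (adjusted p = 0.0513 to 0.212). Without the day 5 library of the Fkbp5 knockdown or of control, 0 genes of the list were called lower by edgeR, and 1 was without the day 3 control library. Between the knockdowns, 6 were lower in Fkbp5 knockdown, beside 6.02% of all genes, among them Dusp4 (−1.45, SE 0.15, adjusted p = 0.000669), the Ras pathway inhibitor Spry1 (−1.003, SE 0.20, adjusted p = 0.00988), Errfi1 (−0.73, SE 0.12, adjusted p = 0.00467) and Dusp6 (−0.62, SE 0.15, adjusted p = 0.0223). Here Dusp4 and Errfi1 were called in all 9 such fits, and Spry1 lost the call in 3 and Dusp6 in 4 of them. The 6 became 2 to 3 without a later library of the Fkbp4 knockdown or the day 5 library of the Fkbp5 knockdown. With day, 5 rose and 9 fell at day 3 (26.4% and 25.8% of all genes) and 4 rose and 9 fell at day 5 (29.3% and 28.6%) against day 0. Dusp4 fell by 2.38 at day 3 (SE 0.15, adjusted p = 5.28e-07) and Errfi1 fell by 1.71 (SE 0.12, adjusted p = 9.67e-07), whereas Spry1 rose by 2.12 (SE 0.22, adjusted p = 1.89e-05) and Zfp36l1 by 2.12 (SE 0.16, adjusted p = 2.38e-06). Whether the lists differ from each other in the knockdowns was not tested.

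Of 28 listed kinases and SRF partners upstream of the early response, 27 were tested. At day 3 against day 0, 11 rose and 3 fell (26.4% and 25.8% of all genes). At day 5 there were 11 that rose and 6 that fell (29.3% and 28.6%). The 11 that rose at day 3 became 7 without the day 0 library of the Fkbp4 knockdown and 5 without the day 0 control library. Araf, a Raf kinase, rose by 0.98 (SE 0.09, adjusted p = 1.01e-05) and Elk1, the ETS partner of SRF, by 0.89 (SE 0.10, adjusted p = 4.4e-05) at day 3, and Rps6ka4, a nuclear kinase below ERK and p38, fell by 1.02 (SE 0.09, adjusted p = 7.48e-06). None was called in Fkbp5 knockdown against control by edgeR, DESeq2 or limma voom (2 at an unadjusted p under 0.05 with edgeR). Rps6ka2 was the 1 of the 27 called in Fkbp4 knockdown against control, where 0.265% of all genes were called higher. It was higher in Fkbp4 knockdown by 0.54 (SE 0.10, adjusted p = 0.0338), a call lost in 7 of 9 fits that left out 1 library (adjusted p = 0.0530 to 0.238). Between the knockdowns, 3 of the 27 were called, all lower in Fkbp5 knockdown, beside 6.02% of all genes called lower. They were Map2k4 (−0.59, SE 0.11, adjusted p = 0.00706), Rps6ka2 (−0.49, SE 0.10, adjusted p = 0.0118) and Srf (−0.42, SE 0.11, adjusted p = 0.0268). Without the day 5 library of the Fkbp5 knockdown none of these 3 was called, Rps6ka2 was also not called without the day 3 library of the Fkbp4 knockdown, and Srf not without the day 0 or day 5 library of the Fkbp4 knockdown (adjusted p = 0.0527 to 0.148).

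Across the 9 libraries the 10 genes did not vary as 1 group. Of the 45 pairs, 29 had a Pearson r of log2 normalised CPM above 0 and 16 above 0.5, with a median of 0.31. The highest were Fosl1 with Dusp5 (r = 0.95), Fosl2 with Jun (0.93) and Egr1 with Ier2 (0.84), and the lowest was Fosl1 with Fosl2 (−0.95). All points share the same 9 libraries and 3 days, so these values are a description with no test. Among 10215 other genes, the 2 with the most similar course were Timeless and Lmnb1 for Fosl1 (both r = 0.99), Ezr and Mcm4 for Dusp5 (both 0.99), Vamp2 and Pdzrn3 for Fosl2 (1.00 and 0.99) and Arhgap42 and Pdlim3 for Jun (both 0.98). They were Ghr and Gtdc1 for Egr1 (0.96 and 0.95), Nhlrc3 and Xab2 for Zfp36 (0.97 and 0.95), Dhrs11 and Zfp780b for Junb (0.95 and 0.93), Mfsd4b4 and Fgfr1op2 for Ier2 (0.93 and 0.85) and Zfp974 and Nes for Fos (0.92 and 0.90). For Fosb, with a mean under 5 CPM, none was sought.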

How the data were processed

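PolyA RNA of 9 C2C12 cultures was sequenced on a HiSeq2500 from TruSeq RNA v2 libraries, per the labels' protocols, and what the authors deposited are unscaled read counts by Ensembl gene. CASAVA 1.8, HISAT2 2.0.2, Subread, featureCounts 1.4.6 and the build mm10 are named in the submitters' processing notes. The annotation, the strand setting and how reads with more than 1 alignment were treated are not given in the sources used here.

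From these counts, CPM (by library totals, 3932372 to 5568486), RPKM over exon unions of GENCODE M21 and exact 95% intervals were computed. Identifiers matched GENCODE M21 for 47309 of 47728 genes. Tests used edgeR 4.0.16 in R 4.3.3: filterByExpr (12844 genes), TMM scaling (factors 0.942 to 1.04), and a quasi-likelihood fit with genotype and day as additive terms (4 residual degrees of freedom), so that the days of a genotype stand in for replicates. The spread behind each p of that fit is the departure of these libraries from additive terms, not a spread between replicates. A difference particular to 1 day widens it, so a gene that is not called may still differ on single days. Nothing says that the libraries came from separate experiments. The interaction of genotype with days 3 and 5 together was fitted over 13372 genes (2 residual degrees of freedom). Tests were two-sided with Benjamini-Hochberg adjustment over all genes tested, with an adjusted p under 0.05 as the threshold for a call. SE is the size of the log2 change over the root of its F statistic. DESeq2 1.42.0, limma 3.58.1 (voom), other scalings and filters, and fits without single libraries, days or genotypes were alternatives. The scripts were tested on simulated data.

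The 10 genes and the other lists were chosen with earlier results of these data known. Besides the 10, a list's counts are given with up to 4 called genes per comparison and direction, those of largest change with a mean of at least 5 CPM, or some of these. Genes like a member in course were the 2 with the highest Pearson r of log2 normalised CPM (prior count 2).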

Additional observations from a re-analysis of the deposited data

How the results depend on the processing

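No paired analysis was possible because each genotype and day has 1 library and the labels give no replicate numbers shared between groups. Of the 17 called changes of the 10 genes, 9 were called under every alternative that could be fitted, and over the 17 results 300 of 356 alternatives kept direction and call, 56 lost the call and 0 reversed. Of the 63 results that were not called, 27 of 1176 alternatives made a call, and 80 changed the sign of a value that passed the threshold in neither setting. The interaction could not be fitted without the day 0 control library, nor that of a knockdown without its own day 0 library. In a fit with a library left out, the lone libraries are assumed to vary like the rest.

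In Fkbp5 knockdown against control, 3 of the 10 genes were called with no filter on low counts, and 0 to 1 when single libraries were left out. Of all genes, 268 were called, against 866 with no filter, 128, 41 and 36 without days 0, 3 and 5, 3 without a day term and 40 to 296 with single libraries left out. In Fkbp4 knockdown against control, the 1 call among the 10 became 0 without day 0, 3 or 5 or without a day term, and 0 to 1 with single libraries left out. Of all genes 140 were called, against 690 with no filter, 228 with DESeq2, 86, 4 and 12 without days 0, 3 and 5, 0 without a day term, 337 with only the 2 genotypes and 4 to 259 with single libraries left out. Between the knockdowns, the 3 calls among the 10 became 5 with no filter, 1 without day 0, 0 without day 5 or a day term, and 1 to 3 with single libraries left out. Of all genes 1650 were called, against 806 without day 0, 250 without day 5, 4 without a day term, 961 with only the 2 genotypes and 487 to 2106 with single libraries left out.

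At day 3 and day 5 against day 0 no count of calls among the 10 or among all genes moved by over 1.5 times. At day 5 against day 3, the 1 call among the 10 became 2 with no filter, 0 with DESeq2, without the libraries of any 1 genotype, without a genotype term or with only the 2 days, and 0 to 1 with single libraries left out. Of all genes 791 were called, against 1578 with no filter, 333 without the Fkbp4 knockdown, 179 without control, 127 without a genotype term and 232 to 924 with single libraries left out. The 5 interaction calls among all genes became 107 with no filter, 0 with limma voom and 5 to 25 with single libraries left out for Fkbp5 knockdown, and 95 with no filter, 10 with DESeq2, 1 with limma voom and 7 to 30 with single libraries left out for Fkbp4 knockdown. The causes were not tested. Depth limits Fosb, with 3 to 27 reads a library, and Fos, with 11 to 87.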
